A study of Arabidopsis thaliana with 54 samples.

Results

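The 10 genes described here form the core of the circadian clock of Arabidopsis thaliana: CCA1, LHY, PRR9, PRR7, PRR5, TOC1, GI, LUX, ELF4 and ELF3. They were taken from the count tables by their locus identifiers. All 10 were found among the 34262 genes of the tables, and all 10 were among the 19668 genes that reached 1 CPM (counts per M counted reads, scaled for library size) in at least 1 library and were tested. The libraries came from whole roots of 5-day-old Col-0 seedlings grown at 22 °C in cycles of 16 h light and 8 h dark, which were moved to fresh medium for 30, 120 or 480 min with 100 nM CIF2 or with no peptide. CIF2 is a small peptide that is made in the stele and is perceived by the receptor kinase SGN3 at the endodermis, where the pair guards the integrity of the Casparian strip. At each time, 3 genotypes were sampled with and without CIF2: cif1-2_cif2-2, a double mutant in the genes of both peptides made by genome editing, sgn3-3, an insertion line of the receptor gene, and WT. Each mutant is a single line. This gave 18 groups of 3 libraries, 1 from each of 3 batches, and the p-values below measure the spread left between libraries after a term for batch.

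The plant clock is a loop of repressors that take turns through the day. The MYB-type factors CCA1 and LHY peak around dawn and hold down genes of the evening. The pseudo-response regulators PRR9, PRR7, PRR5 and TOC1 follow one another from morning to evening and repress CCA1 and LHY. GI, a protein of the afternoon, stabilises the F-box protein that degrades TOC1 and PRR5. LUX, ELF4 and ELF3 form the evening complex, which represses genes of the day. Transcripts of all 10 genes were counted in the root libraries used here, and whether the loop runs in this way in roots was not tested. Neither the labels nor the methods state the hour at which the seedlings were transferred or harvested. Time since transfer, time of day and the handling at transfer cannot be told apart, so the sampling times below are given as minutes of incubation.

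The promoters of the group hold the short sequences through which its members are known to act on one another, and these are shown because the genes that fell and those that rose between 30 and 480 min are described below. The evening element, AAAATATCT, is bound by CCA1, LHY and their relatives. It was searched on both strands from 1000 bases before to 200 bases after the start of each gene in the TAIR10.1 assembly and was present in 6 of the 10 genes, against 8.32% of 27443 promoters searched in the same way. In the following sites the element is in capitals. The TOC1 site lies at chr5:24674802-24674831 on the minus strand, the LUX site at chr3:17182979-17183008 on the plus strand, the ELF4 site at chr2:16735470-16735499 on the minus strand, the site shown of 3 at PRR5 at chr5:8358819-8358848 on the plus strand and the site shown of 3 at GI at chr1:8061150-8061179 on the plus strand. All lie upstream of the annotated gene start.
TOC1: tcatcttggagAAAATATCTcatgatattt
LUX: tagaagatctAAAATATCTagctaactcgt
ELF4: atactacaaaAAAATATCTtgcggattatt
PRR5: ttggatttgaaAAAATATCTagtagaattg
GI: agctcccctcAAAATATCTgtggacatatg
The sixth gene with the element was PRR9, which fell by 480 min and whose site is not shown. CCA1, LHY, PRR7 and ELF3 had none in this window.

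The G-box, CACGTG, is a site of bZIP and bHLH factors and is found in promoters of the morning. It was present in 5 of the 10 genes, CCA1, LHY, PRR9, PRR7 and LUX, against 17.8% of all promoters. LUX, which rose by 480 min, is not among those shown. The sites of the 4 genes that fell most by 480 min are shown with the G-box in capitals. They lie at chr2:19245386-19245415 on the plus strand for CCA1, chr1:37934-37963 on the minus strand for LHY, chr2:19232423-19232452 on the plus strand for PRR9 and chr5:642214-642243 on the minus strand for PRR7.
CCA1: tagtgtatcagaCACGTGtcgacaaactgg
LHY: ctacaatatcacCACGTGtcgatctgcgat
PRR9: ttaggttaatgaCACGTGttaaggtggacc
PRR7: tacccaccattaCACGTGtcagttcaaaaa
The CCA1-binding site AAAAATCT, which does not overlap the evening element in its letters, was found at LHY, PRR9 and PRR5, and in 24.7% of all promoters. GATACG or GATTCG, the letters known for LUX, were found in 9 of the 10 genes and in 48% of all promoters. These matches describe the sequence only and were not tested for binding or for a link with the direction of change.

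The libraries held between 21328819 and 38588050 counted reads, with a median of 28866174. SGN3 ranged from 19.9 to 46.5 CPM in the 18 sgn3-3 libraries, against 105 to 290 CPM in the 18 WT libraries. The insertions of 1 base in cif1-2_cif2-2 leave the transcripts to be counted, so CIF1 and CIF2 levels do not check that genotype. Root genes were high in every library, with a sum of 408 to 765 CPM over 7 markers of root tissues such as CASP1, SCR and PIN2. The sum over 5 photosynthesis genes, used as markers of green tissue, was 19.8 to 63.9 CPM. The 3 cif1-2_cif2-2 libraries titled as CIF2 for 480 min carry a treatment label that says no peptide, and they were grouped by title. Their values are part of every result on CIF2 at 480 min in that genotype.

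The clock genes changed with time of incubation in every genotype. At 480 min, 5 of the 10 genes differed from 30 min by at least 1 on the log2 scale at an adjusted p of 0.05 or less in cif1-2_cif2-2, in sgn3-3 and in WT roots without peptide, where 5.43%, 5.78% and 7.11% of all genes did so in the same order of genotypes. CCA1, LHY, PRR9 and PRR7 fell and ELF4 rose in all 3 genotypes. On the adjusted p alone, 9, 10 and 8 genes passed, against 29.9%, 32.9% and 44.5% of all genes. The median size of the change over the 10 genes was 1.25, 1.19 and 1.33 on the log2 scale, against 0.15, 0.16 and 0.21 over all genes tested. All such tests used the quasi-likelihood test of edgeR in 1 model of the 54 libraries with batch as a term, with Benjamini-Hochberg adjustment over all genes tested.

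**Figure D1:**
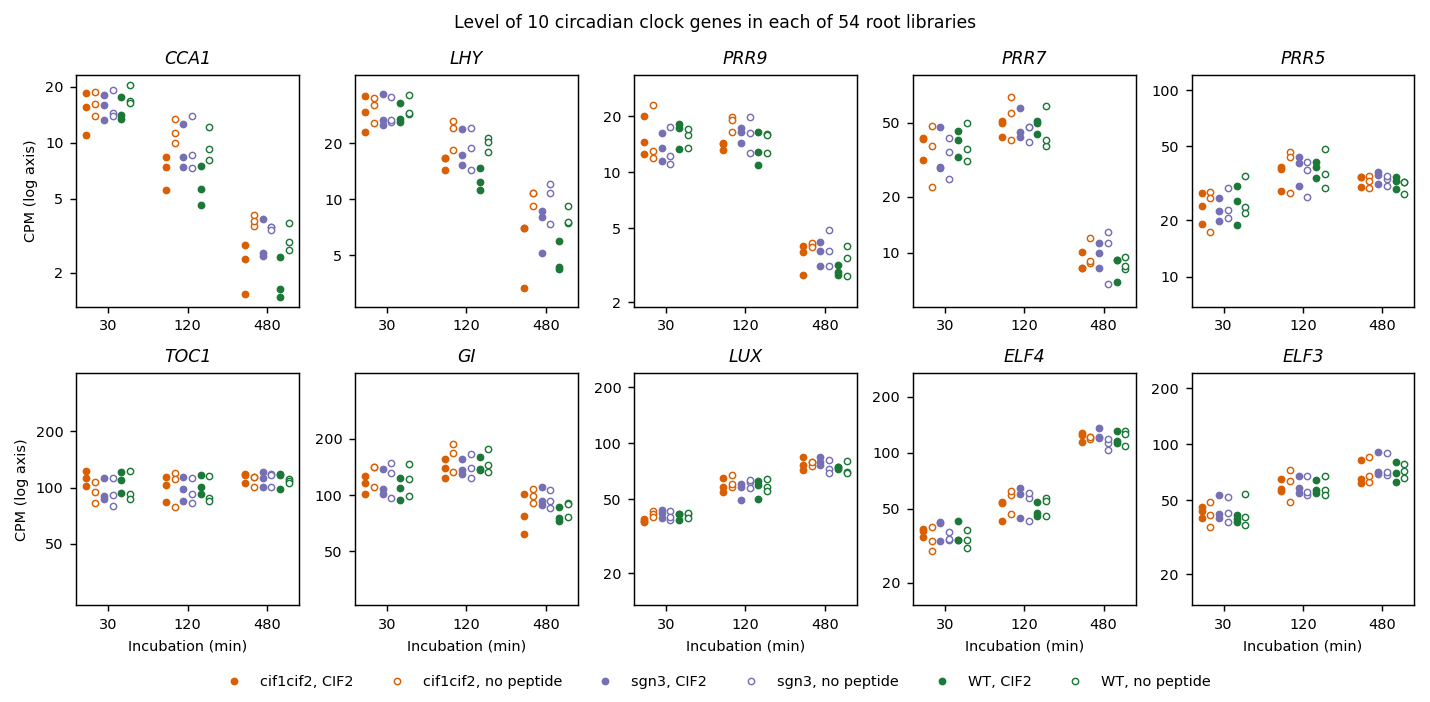
Level of each clock gene in CPM on a log axis of equal span in all panels, against incubation of 30, 120 and 480 min; each point is 1 of 54 libraries, filled with CIF2 and open with no peptide, coloured by genotype. CCA1, LHY, PRR9 and PRR7 are lowest at 480 min and ELF4 is highest there, while TOC1 stays between 78.2 and 122 CPM.

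CCA1 (AT2G46830, chr2:19245591-19248915), the MYB factor of the morning, had 16.6, 16.4 and 20.5 CPM in the 3 WT libraries without peptide at 30 min, 9.25, 8.05 and 12.2 CPM at 120 min and 2.93, 3.72 and 2.66 CPM at 480 min. The 3 times did not overlap, and each batch fell at both steps. At 480 min relative to 30 min the log2 fold change was -2.09 ± 0.20 in cif1-2_cif2-2, -2.16 ± 0.20 in sgn3-3 and -2.52 ± 0.21 (SE, n = 3 each, adjusted p = 2.6e-13 by edgeR) in WT. CCA1 was the only gene of the 10 that fell at 120 min relative to 30 min in all 6 combinations of genotype and peptide, by -1.35 to -0.49 on the log2 scale.

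LHY (AT1G01060, chr1:33365-37871), the close relative of CCA1 with overlapping function, followed the same course at a higher level. The WT libraries without peptide had 28.7, 29 and 36.2 CPM at 30 min, 21.4, 17.9 and 20.3 CPM at 120 min and 9.25, 7.48 and 7.59 CPM at 480 min. Its log2 fold change at 480 min relative to 30 min was -1.58 ± 0.21 in cif1-2_cif2-2, -1.50 ± 0.21 in sgn3-3 and -1.94 ± 0.21 in WT. At 120 min relative to 30 min LHY fell in 5 of the 6 combinations, and in cif1-2_cif2-2 without peptide its change of -0.43 ± 0.19 had an adjusted p of 0.0867 by edgeR. Over the means of the 18 groups, which share batches and normalization, the log2 levels of CCA1 and LHY had a Pearson r of 1 when rounded to 2 decimals.

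PRR9 and PRR7 fell between 120 and 480 min and not before. PRR9 (AT2G46790, chr2:19232607-19235179), the earliest of the pseudo-response regulators, had 15.9, 17 and 13.4 CPM at 30 min, 16.1, 12.7 and 15.8 CPM at 120 min and 3.46, 2.78 and 4.04 CPM at 480 min in WT without peptide. PRR7 (AT5G02810, chr5:637681-642030), which follows it in the day, had 49.9, 36.1 and 31.0 CPM, then 61.1, 37.6 and 40.5 CPM, then 8.17, 8.45 and 9.47 CPM in the same libraries. The values at 30 and 120 min overlapped for both genes, and those at 480 min lay below all others. At 480 min relative to 120 min the log2 fold change in the 6 combinations was -2.18 to -1.99 for PRR9 and -2.51 to -2.13 for PRR7. CCA1 had -1.68 to -1.49 over the same step. At 120 min relative to 30 min no change of PRR9 passed the test, with values of -0.29 to 0.28, and PRR7 rose in 1 of the 6 combinations, cif1-2_cif2-2 without peptide, by 0.59 ± 0.20 (adjusted p = 0.018 by edgeR). PRR7 was nevertheless higher at 120 than at 30 min in 9 of 9 genotype and batch pairs without peptide, and in 9 of 9 with CIF2.

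PRR5 and TOC1, the later members of this family, did not pass both thresholds at any step. PRR5 (AT5G24470, chr5:8356204-8358546) rose at 120 min relative to 30 min in all 6 combinations, by 0.50 to 0.73 on the log2 scale, and did not pass between 120 and 480 min in any. In WT without peptide its values were 34.5, 23.6 and 21.8 CPM at 30 min, 48.1, 35.5 and 30.0 CPM at 120 min and 32.2, 32.2 and 27.8 CPM at 480 min. The groups overlapped, although each batch was higher at 120 than at 30 min. TOC1 (AT5G61380, chr5:24674963-24678550), a repressor of CCA1 and LHY whose mutants have a short period, had 122, 92.2 and 87.0 CPM, then 116, 87.7 and 84.2 CPM, then 111, 109 and 105 CPM. Of the 18 tests between times, TOC1 passed in 1, at 480 min relative to 30 min in sgn3-3 without peptide, with a log2 fold change of 0.26 ± 0.10 (adjusted p = 0.039 by edgeR).

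GI (AT1G22770, chr1:8061751-8067790), the large protein of the afternoon, was highest at 120 min. In WT without peptide it had 147, 122 and 98.8 CPM at 30 min, 176, 145 and 132 CPM at 120 min and 91.0, 76.0 and 89.5 CPM at 480 min. The libraries at 480 min lay below those at 120 min in each genotype, and GI fell between these times in all 6 combinations, by -0.88 to -0.52 on the log2 scale. At 480 min relative to 30 min it fell in 5 of 6, by -0.51 to -0.39, and the remaining value, in sgn3-3 with CIF2, was -0.23 ± 0.14 (adjusted p = 0.188 by edgeR). In WT without peptide the change was -0.69, -0.68 and -0.14 in batches 1, 2 and 3.

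The 3 genes of the evening complex rose together. ELF4 (AT2G40080, chr2:16734294-16734953), a small protein needed for the complex, had 38.3, 34.1 and 31.0 CPM at 30 min, 57.5, 54.8 and 46.0 CPM at 120 min and 109, 131 and 126 CPM at 480 min in WT without peptide. LUX (AT3G46640, chr3:17183042-17186959), its DNA-binding member, had 41.9, 42.1 and 39.6 CPM, then 64.0, 58.5 and 55.3 CPM, then 69.97, 69.3 and 80.6 CPM. ELF3 (AT2G25930, chr2:11058944-11063324), the scaffold that joins ELF4 and LUX, had 53.7, 40.8 and 36.8 CPM, then 67.4, 56.4 and 53.0 CPM, then 71.5, 78.2 and 66.0 CPM. In all 9 pairs of genotype and batch without peptide each of the 3 genes was higher at 480 than at 30 min. ELF4 had the largest rise, with a log2 fold change of 1.66 to 1.83 over the 6 combinations at 480 min relative to 30 min, while LUX had 0.83 to 1.01 and ELF3 had 0.68 to 0.84, all past the adjusted p. Genes on the other strand overlap 2 of these loci, and the strand setting of the counting is not given in the sources used here. The neighbour of LUX, AT3G46650, had 1.34 to 6.2 CPM and the neighbour of ELF3, AT2G25940, had 9.1 to 17.4 CPM, with log2 fold changes of -0.52 to -0.03 for the first and -0.53 to -0.18 for the second over the same 6 comparisons, the opposite sign to LUX and ELF3.

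**Figure D2:**
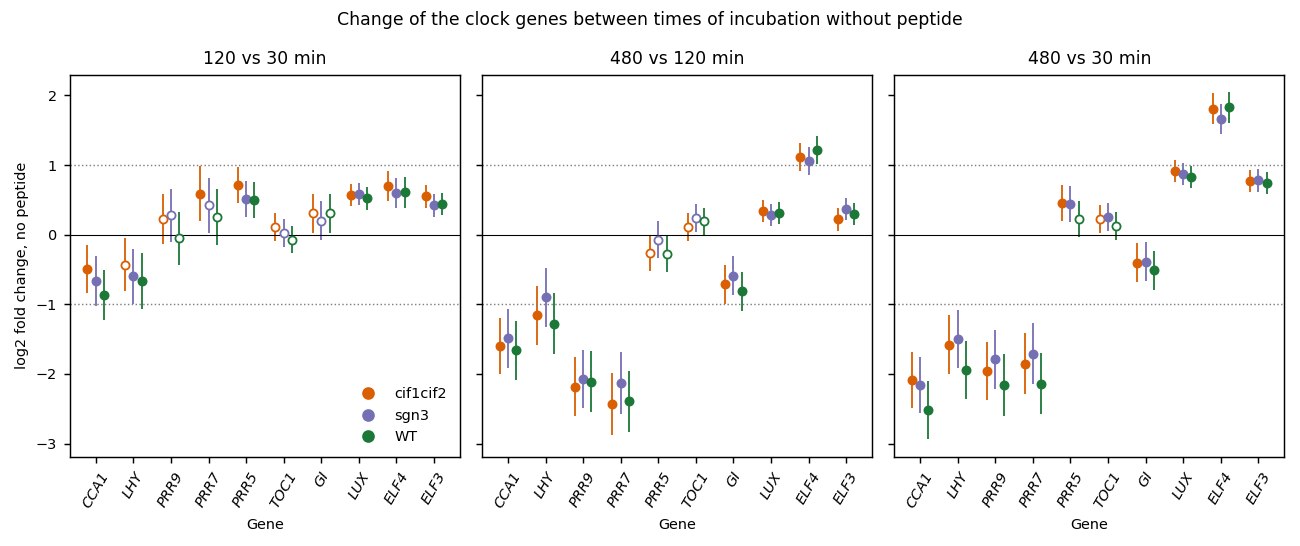
The log2 fold change between times without peptide for the 10 genes, in cif1-2_cif2-2, sgn3-3 and WT, with bars of 2 SE (n = 3 libraries per group); filled points have an adjusted p of 0.05 or less and dotted lines mark 1 and -1. CCA1 and LHY fall in both steps, except LHY in cif1-2_cif2-2 from 30 to 120 min (adjusted p = 0.0867 by edgeR), PRR9 and PRR7 fall only from 120 to 480 min, and ELF4 rises by 1.06 to 1.22 in that step.

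Between 30 and 120 min, no clock gene without peptide changed by 1 or more on the log2 scale with an adjusted p of 0.05 or less, against 5.13% of all genes in cif1-2_cif2-2, 5.21% in sgn3-3 and 5.46% in WT. On the adjusted p alone, 6 genes passed in each mutant and in WT, against 32%, 27.8% and 30.3% of all genes. PRR5, LUX, ELF4 and ELF3 rose and CCA1 fell in each genotype, and the sixth was LHY, which fell, in sgn3-3 and WT and PRR7, which rose, in cif1-2_cif2-2. Between 120 and 480 min both thresholds were passed by 5 genes in cif1-2_cif2-2, 4 in sgn3-3 and 5 in WT, against 5.25%, 4.91% and 5.05% of all genes. On the adjusted p alone 8 genes passed in each, against 33.3%, 29.3% and 31.3%. LHY made the difference, with a log2 fold change of -0.90 ± 0.21 in sgn3-3.

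Over all genotypes and treatments, the 18 libraries at 480 min did not overlap the 18 at 30 min for 7 of the 10 genes, against 9.45% of all genes. For 120 against 30 min this was 1 gene, LUX, against 7.36%, and for 480 against 120 min it was 6 genes, against 7.46%. CCA1 had 1.49 to 4.08 CPM at 480 min and 11 to 20.5 CPM at 30 min, and ELF4 had 104 to 136 CPM at 480 min and 29.8 to 43.2 CPM at 30 min. LUX was the one gene whose 3 times did not overlap at all, with 37.8 to 43.7 CPM at 30 min, 49.5 to 67.5 CPM at 120 min and 69.1 to 84.7 CPM at 480 min. PRR5, TOC1 and GI were the 3 genes that overlapped between 30 and 480 min. The sum over the green tissue markers overlapped between the times, with 30.2 to 63.9 CPM at 30 min, 21.4 to 55.1 CPM at 120 min and 19.8 to 50.3 CPM at 480 min. Of the 5 green markers, 0 to 1 fell at 480 min relative to 30 min without peptide, and with CIF2 5 fell in cif1-2_cif2-2, 1 in sgn3-3 and 4 in WT. Of the 7 root markers SUC2, a sucrose transporter of phloem companion cells, passed both thresholds in all 6 comparisons of 480 with 30 min, with log2 fold changes of -1.52 to -1.17. The part of these markers in the time result was not tested.

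Per length of the annotated exons of each gene, merged over its transcripts, the order of the members also changed with time. The order between genes depends on that annotation. In WT without peptide ELF4 was highest at all 3 times, with 55.7 ± 5.89, 85.3 ± 9.72 and 197 ± 18.2 CPM per kb (SD, n = 3) at 30, 120 and 480 min, and CCA1 was lowest at all 3, with 6.56 ± 0.846, 3.61 ± 0.776 and 1.14 ± 0.202 CPM per kb. At 30 min TOC1 had 35.8 ± 6.80 and GI 28.4 ± 5.56 CPM per kb, PRR5 and ELF3 both had 15.9 CPM per kb, and PRR9 had 7.22 ± 0.854 CPM per kb. All genes were measured in the same 3 libraries of a group, and differences between genes were not tested. At 480 min GI, LUX and PRR5 lay together at 19.9 ± 1.92, 18.7 ± 1.62 and 18.3 ± 1.52 CPM per kb, and PRR7, LHY, PRR9 and CCA1 were all at 2.69 CPM per kb or less.

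No difference of the mutants from WT passed the test. Without peptide, none of the 60 tests of a mutant against WT at 1 time passed for the 10 genes (edgeR, with an unadjusted p under 0.05 in 0 of 60), and the log2 fold changes lay between -0.20 and 0.34. Of all genes, 0.681%, 0.737% and 0.183% passed at 30, 120 and 480 min in cif1-2_cif2-2, and 0.229%, 0.0864% and 0.0915% in sgn3-3. With a log2 fold change of 1 or more the shares were 0.0915%, 0.0814% and 0.0559% in cif1-2_cif2-2 and 0.0508%, 0.0508% and 0.0559% in sgn3-3. The largest values were those of LHY at 480 min, at 0.34 ± 0.23 in sgn3-3 and 0.33 ± 0.23 in cif1-2_cif2-2. The difference of the time change, mutant minus WT, also passed for none of the genes in 40 tests (edgeR, unadjusted p under 0.05 in 0 of 40). Of all genes, 0.0458% passed for cif1-2_cif2-2 and 0.0102% for sgn3-3 at 480 min relative to 30 min, and 0% for both at 120 min. For CCA1 at 480 min relative to 30 min it was 0.43 ± 0.29 in cif1-2_cif2-2, with an interval of -0.15 to 1.02, and 0.36 ± 0.29 in sgn3-3, with an interval of -0.22 to 0.95, so differences of that size were not detectable here.

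CCA1 and LHY were the members that fell with CIF2, CCA1 at 120 min in cif1-2_cif2-2 and WT, and LHY at 480 min in both and at 120 min in WT. At 120 min, 1 of the 10 genes passed the adjusted p in cif1-2_cif2-2, 0 in sgn3-3 and 2 in WT, against 13.7%, 0% and 10.6% of all genes. At 480 min the counts were 1, 0 and 1, against 10.9%, 0% and 10.1%. At 30 min no clock gene passed in any genotype, against 11.6%, 0.0305% and 7.78% of all genes. No more than 2 of the 10 genes passed in any comparison, which is not set apart from the background. No member also changed by 1 or more on the log2 scale, against 1.86%, 0.0254% and 1.17% of all genes at 30 min in cif1-2_cif2-2, sgn3-3 and WT, 2.1%, 0% and 1.48% at 120 min and 2.47%, 0% and 2.29% at 480 min. In the comparisons with no member called, the unadjusted p by edgeR was under 0.05 for 1 gene in cif1-2_cif2-2 at 30 min, 1 in sgn3-3 at 480 min and 0 in the others, against 22% of all genes in cif1-2_cif2-2 at 30 min, 18.7% in WT at 30 min and 7.12%, 2.94% and 5.17% in sgn3-3 at 30, 120 and 480 min.

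CCA1 at 120 min had 4.63, 5.61 and 7.45 CPM with CIF2 and 9.25, 8.05 and 12.2 CPM without it in WT. In cif1-2_cif2-2 it had 5.55, 8.40 and 7.41 CPM with CIF2 and 9.91, 11.3 and 13.3 CPM without it. The groups did not overlap in either genotype, and CCA1 was lower with CIF2 in all 6 pairs of the same batch. The log2 fold change was -0.74 ± 0.19 in WT (n = 3 each, adjusted p = 0.00671 by edgeR) and -0.69 ± 0.19 in cif1-2_cif2-2 (adjusted p = 0.00948 by edgeR). Without batch 1 the adjusted p by edgeR was 0.0689 in WT and 0.0642 in cif1-2_cif2-2, and without batch 2 it was 0.051 in WT, while the log2 fold change stayed between -0.86 and -0.63 over the alternatives tried in both genotypes.

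In sgn3-3 CCA1 at 120 min had 7.43, 8.35 and 12.5 CPM with CIF2 and 8.60, 7.27 and 13.9 CPM without it. These values overlapped, and the log2 fold change of -0.08 ± 0.18 had an interval of -0.45 to 0.28. The CIF2 effect in sgn3-3 minus that in WT was 0.66 ± 0.26 for CCA1, with an interval of 0.13 to 1.18 and an adjusted p of 0.231 by edgeR, where 3.2% of all genes passed, so a difference between the genotypes was not shown at that time. In a fit of the libraries of that comparison alone the adjusted p was 0.0285 by edgeR. In 12 of 13 alternatives the difference did not pass, with adjusted p-values up to 0.633 (edgeR, DESeq2 or limma).

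At 480 min CCA1 had 2.42, 1.64 and 1.49 CPM with CIF2 and 2.93, 3.72 and 2.66 CPM without it in WT, and 2.82, 2.37 and 1.54 CPM with CIF2 and 4.08, 3.56 and 3.78 CPM without it in cif1-2_cif2-2. Again the groups did not overlap. Its log2 fold change was -0.76 ± 0.27 in WT (adjusted p = 0.0622 by edgeR) and -0.71 ± 0.25 in cif1-2_cif2-2 (adjusted p = 0.0589 by edgeR), just outside the threshold, and both passed with DESeq2, at an adjusted p of 0.019 in WT and 0.017 in cif1-2_cif2-2. In sgn3-3 the value was -0.22 ± 0.23. Over the alternatives (edgeR, DESeq2 or limma) the adjusted p of CCA1 was 0.019 to 0.376 in WT and 0.00832 to 0.255 in cif1-2_cif2-2. It did not pass in 8 of 12 alternatives in WT and 8 of 11 in cif1-2_cif2-2.

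LHY moved with CCA1. At 120 min it had 11.2, 12.3 and 14.8 CPM with CIF2 and 21.4, 17.9 and 20.3 CPM without it in WT, a log2 fold change of -0.64 ± 0.20 (adjusted p = 0.036 by edgeR). In cif1-2_cif2-2 the change at 120 min was -0.52 ± 0.20 (adjusted p = 0.0828 by edgeR). At 480 min LHY had 5.96, 4.33 and 4.23 CPM with CIF2 and 9.25, 7.48 and 7.59 CPM without it in WT, and 7.03, 7.03 and 3.35 CPM with CIF2 and 10.8, 10.8 and 9.21 CPM without it in cif1-2_cif2-2. These are log2 fold changes of -0.76 ± 0.25 (adjusted p = 0.0419 by edgeR) in WT and -0.78 ± 0.24 (adjusted p = 0.0224 by edgeR) in cif1-2_cif2-2, and the groups did not overlap. In a model without the batch term the adjusted p in WT was 0.0732 at 120 min and 0.0597 at 480 min by edgeR. Without batch 1 the LHY calls had adjusted p-values of 0.339 in WT at 120 min, 0.195 in WT at 480 min and 0.0826 in cif1-2_cif2-2 at 480 min, and without batch 2 they had 0.173, 0.16 and 0.139 (edgeR, in the same order).

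LHY in sgn3-3 at 480 min had 8.04, 8.68 and 5.17 CPM with CIF2 and 10.8, 12.1 and 7.39 CPM without it, lower with CIF2 in 3 of 3 batches. The log2 fold change was -0.49 ± 0.23, with an interval of -0.94 to -0.04 and an adjusted p of 0.953 by edgeR in a comparison in which no gene passed. The effect in sgn3-3 minus that in WT was 0.27 ± 0.34 at 480 min and 0.60 ± 0.29 at 120 min (adjusted p = 0.794 and 0.361 by edgeR). None of the 60 differences of a CIF2 effect, mutant minus WT, passed for the 10 genes, with an unadjusted p under 0.05 for 2 of them by edgeR, CCA1 and LHY at 120 min in sgn3-3. Of all genes, 0.0153%, 0.29% and 0.00508% passed for cif1-2_cif2-2 minus WT at 30, 120 and 480 min, and 1.89%, 3.2% and 4.52% for sgn3-3 minus WT.

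Green tissue markers were lower with CIF2 in the same groups. Their sum at 480 min was 20.2 to 26.3 CPM with CIF2 and 41.7 to 46.8 CPM without it in WT. It was 19.8 to 29.7 CPM with CIF2 and 30.2 to 46.9 CPM without it in cif1-2_cif2-2, and 37.5 to 50.3 CPM with CIF2 and 37.7 to 48.2 CPM without it in sgn3-3. At 120 min it was 28 to 30.9 CPM with CIF2 and 32.4 to 40.9 CPM without it in WT, 21.4 to 29.4 CPM with CIF2 and 36.1 to 55.1 CPM without it in cif1-2_cif2-2, and 36.0 to 41.9 CPM with CIF2 and 30.1 to 46.7 CPM without it in sgn3-3. Of the 5 markers, LHCB1.3 and RCA fell at 480 min in WT and cif1-2_cif2-2 and RBCS3B had a median of 0 CPM over the 54 libraries. These photosynthesis genes are themselves known to follow light and the clock. Among the root markers MYB36, a regulator of Casparian strip formation, rose with CIF2 by 0.63 to 1.76 on the log2 scale at every time in both genotypes, and CASP1, a Casparian strip protein, rose at 480 min in both and at 120 min in cif1-2_cif2-2, by 0.60 to 0.93. SCR, a regulator of endodermal identity, had -0.44 to -0.19 in WT at the 3 times and -0.17 and -0.38 in cif1-2_cif2-2 at 120 and 480 min, all past the adjusted p, and SHR had 0.23 in cif1-2_cif2-2 at 120 min. The part of these genes in the result on CCA1 and LHY was not tested, and in whole roots fewer cells of a type and less RNA per cell cannot be told apart.

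**Figure D3:**
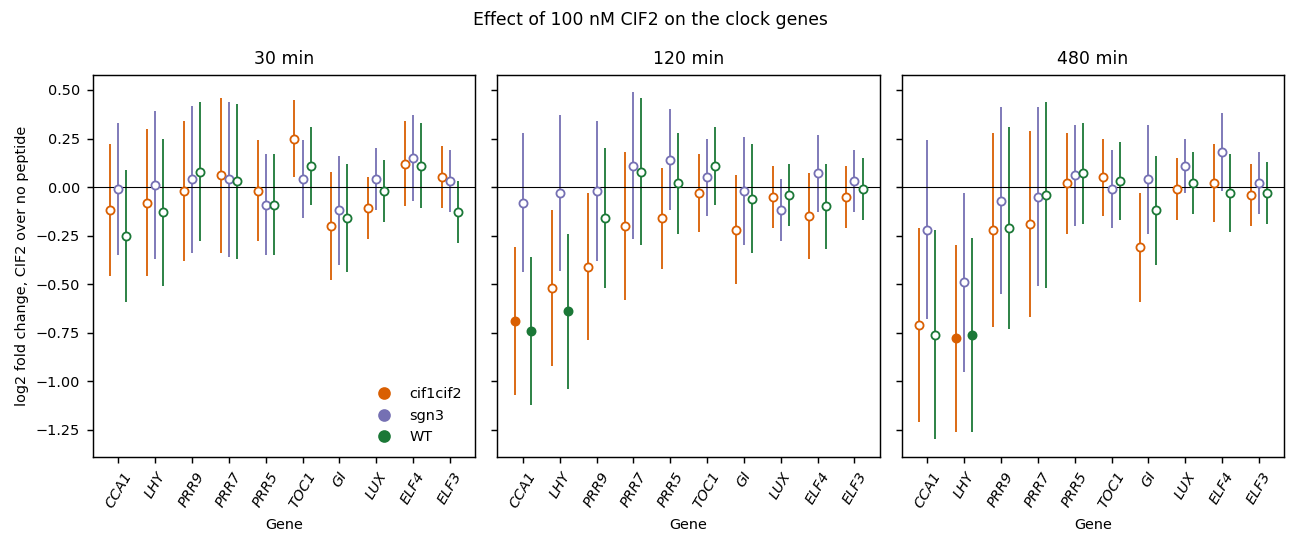
The log2 fold change of CIF2 over no peptide for the 10 genes at 30, 120 and 480 min in cif1-2_cif2-2, sgn3-3 and WT, with bars of 2 SE (n = 3 libraries per group); filled points have an adjusted p of 0.05 or less. CCA1 and LHY lie between -0.78 and -0.52 in cif1-2_cif2-2 and WT at 120 and 480 min, and the values of the other 8 genes lie between -0.41 and 0.25.

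For the other 8 genes the CIF2 effects lay between -0.41 and 0.25 on the log2 scale over all genotypes and times, with a smallest adjusted p of 0.108 by edgeR and intervals that reached from -0.78 to 0.50. The lowest was PRR9 in cif1-2_cif2-2 at 120 min, with 13.2, 14.3 and 14.2 CPM with CIF2 and 16.5, 19.8 and 19.1 CPM without it. The highest was TOC1 in cif1-2_cif2-2 at 30 min, with 122, 113 and 102 CPM with CIF2 and 106, 94.8 and 82.8 CPM without it. GI did not pass, but in cif1-2_cif2-2 and WT it was lower with CIF2 in 6 of 6 batch pairs at 30 min. At 120 min this held in 5 of 6 pairs and at 480 min in 6 of 6. Evening genes showed no counterpart to the lower CCA1 and LHY that passed the test. ELF4 at 480 min in WT had 130, 116 and 113 CPM with CIF2 and 109, 131 and 126 CPM without it, and its log2 fold change was -0.03 ± 0.10.

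With CIF2 the same 5 genes passed both thresholds over the whole time course in each genotype. At 480 min relative to 30 min both thresholds were passed by 6 genes in cif1-2_cif2-2, 5 in sgn3-3 and 5 in WT, against 8.51%, 6.32% and 8.27% of all genes, and the sixth, in cif1-2_cif2-2, was LUX at 1.01 ± 0.08. On the adjusted p alone 9, 8 and 9 genes passed, against 43.4%, 40.1% and 47.8%. CCA1 had its largest fall here, with -3.03 ± 0.22 on the log2 scale in WT with CIF2. At 120 min relative to 30 min CCA1 passed both thresholds with CIF2 in cif1-2_cif2-2, at -1.06 ± 0.19, and in WT, at -1.35 ± 0.19, and LHY did so in WT, at -1.16 ± 0.20, where 6.64% and 7.09% of all genes passed in cif1-2_cif2-2 and WT and 5.43% in sgn3-3, in which no member did. On the adjusted p alone 6, 6 and 7 genes passed in cif1-2_cif2-2, sgn3-3 and WT, against 35.3%, 30.7% and 44.8%. At 480 min relative to 120 min with CIF2, both thresholds were passed by CCA1, LHY, PRR9, PRR7 and ELF4 in each genotype, against 6.64%, 5.43% and 6.36% of all genes, and 8 genes passed the adjusted p, against 34.7%, 32.2% and 34.8%. The change in the CIF2 effect between 30 and 480 min did not pass for any member, and the lowest value was that of LHY in cif1-2_cif2-2, -0.71 ± 0.30 (adjusted p = 0.191 by edgeR). Of all genes, 7.35% passed in cif1-2_cif2-2, 0% in sgn3-3 and 5.14% in WT, and by the unadjusted p 1 of the 30 member values was under 0.05.

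Batch moved the clock genes in a pattern of its own. At 30 min CCA1 and LHY were highest in batch 3 in 6 of 6 groups, and PRR7 and PRR5 were lowest in batch 3 in 6 of 6. TOC1, PRR5 and ELF3 were highest in batch 1 in 6 of 6 groups at 30 min and again at 120 min, and GI was so at 120 min. Over the 6 groups at 30 min TOC1 averaged 116 ± 6.54, 98.1 ± 10.8 and 89.1 ± 7.76 CPM in batches 1, 2 and 3 (SD over groups), while CCA1 averaged 14.2 ± 1.98, 14.8 ± 1.34 and 18.7 ± 1.04 CPM. At 480 min the order held for some genes and was reversed for others, such as LHY and PRR7. ELF3 was still highest in batch 1 in 5 of 6 groups, and TOC1 and PRR5 in 4 of 6 each. TOC1 averaged 117 ± 3.58, 102 ± 4.13 and 114 ± 4.66 CPM, LHY was lowest in batch 3 in 5 of 6 groups, and PRR7, PRR9 and GI were highest in batch 3 in 5 of 6 groups each. As a share of the variance in log2 CPM over the 54 libraries, batch took 44.2% for TOC1, 23.7% for PRR5 and 15.2% for ELF3, while time took 95.9% for ELF4, 94.4% for LUX and 93.7% for PRR9 and for PRR7. The model holds 1 batch term for all times, so batch differences that change with time remain in its error.

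**Figure D4:**
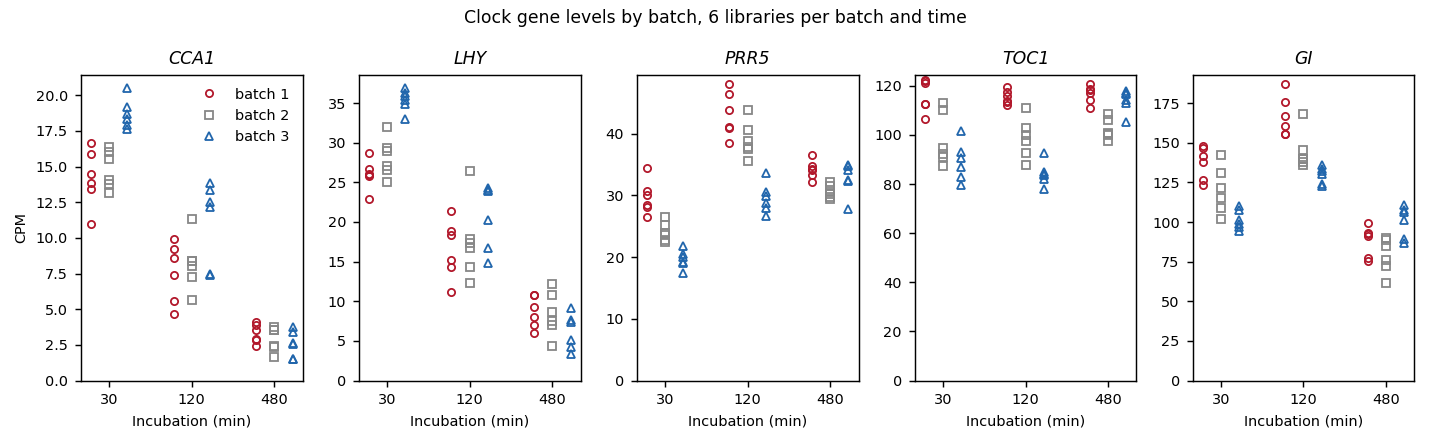
CPM of 5 clock genes against incubation of 30, 120 and 480 min, by batch, with 1 point for each of the 6 combinations of genotype and peptide. At 30 min batch 3 lies above the others for CCA1 and LHY and at the bottom for PRR5, TOC1 and GI in most groups, and at 480 min the batches overlap more.

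Outside the 10 genes, other genes of the oscillator were compared between the times. Of 26 listed, 25 were tested, and at 480 min relative to 30 min in WT without peptide 6 rose and 9 fell on the adjusted p, where 21.7% of all genes rose and 22.8% fell, so that the share that rose was near that of all genes. By 1 or more on the log2 scale 4 rose and 4 fell, against 2.04% and 5.07% of all genes. The largest falls were those of LNK4, LNK3 and LNK2, coactivators that work with RVE8 on evening genes. LNK4 had 0.504, 0.431 and 0.674 CPM at 480 min and 7.08, 7.81 and 8.67 CPM at 30 min, a log2 fold change of -3.85 ± 0.23. LNK3 and LNK2 had log2 fold changes of -2.96 ± 0.24 and -1.91 ± 0.11. The largest rises were those of JMJD5, a histone demethylase tied to the clock, RVE2, a relative of CCA1, and PRR3, which protects TOC1 from degradation. JMJD5 had 25.6, 25.1 and 24.3 CPM at 480 min and 3.34, 2.90 and 1.60 CPM at 30 min, a log2 fold change of 3.29 ± 0.22, and RVE2 and PRR3 had 1.85 ± 0.12 and 1.69 ± 0.20. All 6 passed both thresholds in each of the 6 combinations of genotype and peptide, with JMJD5 between 3.10 and 3.29 and LNK4 between -4.07 and -3.50.

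Of 13 listed output genes, 10 were tested, and in the same comparison 1 rose and 7 fell on the adjusted p, against 21.7% and 22.8% of all genes, and 0 rose and 2 fell by 1 or more on the log2 scale, against 2.04% and 5.07%. The largest falls were in CDF3, CDF5 and CDF1. CDF3 and CDF5, DOF-type factors that repress CONSTANS, fell by 2.14 ± 0.16 and 1.78 ± 0.16 on the log2 scale, and CDF1, of the same family, had -0.86 ± 0.20. BBX18 and BBX19, B-box proteins, had -0.80 ± 0.26 and -0.49 ± 0.11. GRP7, an RNA-binding protein under clock control, had 782, 734 and 826 CPM at 480 min and 433, 452 and 407 CPM at 30 min, a log2 fold change of 0.86 ± 0.08.

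**Figure D5:**
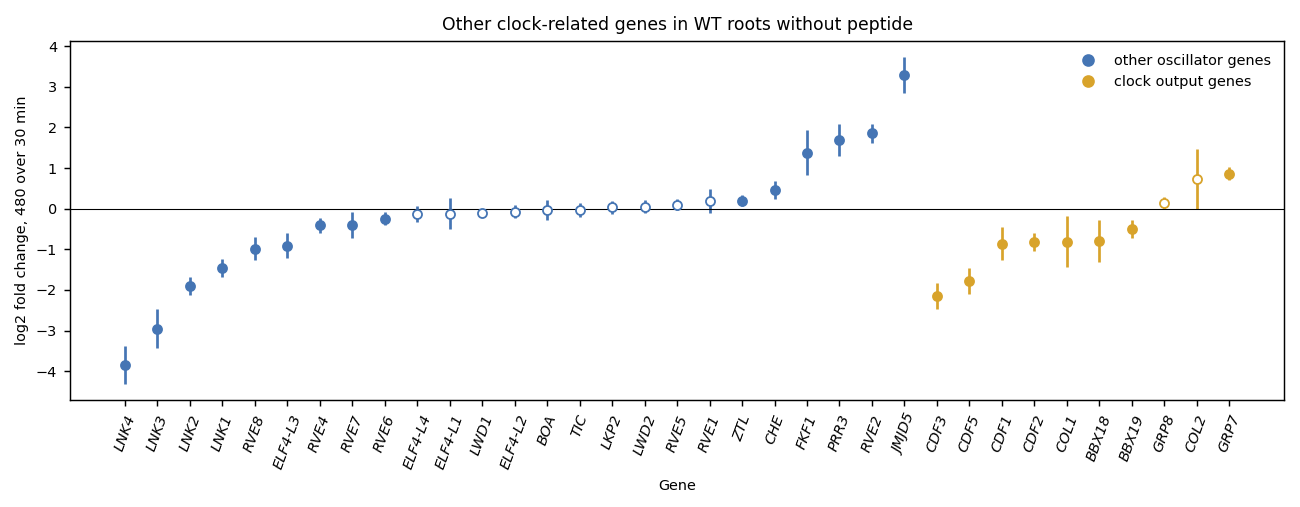
The log2 fold change at 480 over 30 min in WT roots without peptide for 25 other oscillator genes and 10 output genes, ordered by size within each list, with bars of 2 SE (n = 3 libraries per time); filled points have an adjusted p of 0.05 or less. LNK4 at -3.85 and JMJD5 at 3.29 mark the ends of the range.

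CIF2 raised one of these output genes by more than 1 on the log2 scale. CDF1, a DOF-type repressor of CONSTANS, had 7.68, 6.98 and 7.52 CPM with CIF2 and 3.33, 3.29 and 2.34 CPM without it in WT at 480 min, and 7.09, 9.13 and 6.50 CPM with CIF2 and 3.11, 3.67 and 2.16 CPM without it in cif1-2_cif2-2. The groups did not overlap, and the log2 fold change was 1.31 ± 0.19 (adjusted p = 1.98e-06 by edgeR) in WT and 1.35 ± 0.20 (adjusted p = 9.98e-07 by edgeR) in cif1-2_cif2-2. In sgn3-3 it had 3.20, 2.52 and 2.36 CPM with CIF2 and 2.42, 2.80 and 2.35 CPM without it. COL1, a relative of CONSTANS, fell with CIF2 in WT at 30 and 120 min and in cif1-2_cif2-2 at 30 and 480 min, by 1 to 1.35 on the log2 scale, at levels of 0.131 to 1.57 CPM in these groups. Of the other oscillator genes, 1 to 3 of 25 fell with CIF2 in each of the 6 comparisons in cif1-2_cif2-2 and WT and none rose, where 2.01 to 6.23% of all genes fell and 5.78 to 8.68% rose. In 4 of the 6 comparisons a single gene fell, which is near the share of all genes. The named ones were CHE, a TCP factor known to repress CCA1, at -0.51 ± 0.11 at 120 min and -0.35 ± 0.10 at 480 min in WT, ELF4-L2 at -0.26 ± 0.08 at 480 min in both genotypes, ELF4-L3 at -0.57 ± 0.15 in WT and RVE7 at -0.52 ± 0.16 in cif1-2_cif2-2 at 30 min, and RVE4, LNK1 and LNK4, at -0.36 ± 0.09, -0.36 ± 0.11 and -0.45 ± 0.14 in cif1-2_cif2-2 at 120 min. Of the remaining output genes, CDF3 had -0.46 ± 0.14 in cif1-2_cif2-2 at 120 min, CDF2 had 0.41 ± 0.10 in cif1-2_cif2-2 at 30 min and GRP8 had 0.23 ± 0.07 in WT at 30 min. COL2, at very low counts, had -2.59 ± 0.60 in cif1-2_cif2-2 at 30 min and -1.58 ± 0.45 in WT at 120 min. In sgn3-3 none of the 25 and 10 genes passed at any time by edgeR, where 0.0305%, 0% and 0% of all genes passed at 30, 120 and 480 min.

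The genes outside the members with the pattern most like that of CCA1 over the means of the 18 groups were AT3G03280, AT4G39795, LNK1, AT5G10770 and AT3G62650, with a Pearson r of log2 CPM of 0.992, 0.988, 0.987, 0.987 and 0.983. Those most like TOC1 were AT5G41180, DAG1, AT5G01670, UGT84A1 and AT3G09405, with a Pearson r of 0.91 to 0.893. TOC1 itself varied little, between 78.2 and 122 CPM over all libraries, and r does not compare the size of changes. The group means of UGT84A1 spanned 4.36 to 7.59 in log2 CPM. Among the members, PRR9 and PRR7 had an r of 0.99, LUX and ELF3 of 0.98 and CCA1 and ELF4 of -0.95. These are descriptions over 18 means that share batches and normalization.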

How the data were processed

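Whole-root RNA was sequenced from stranded mRNA libraries in 54 samples, 18 groups of 3 batches. Per the labels, the authors trimmed reads with cutadapt 1.8, aligned them to TAIR10 with STAR 2.5.3a and deposited raw read counts per gene made with HTSeq 0.9.1. Reads with no feature or an ambiguous one took 1.02 to 1.34% of these and the counted reads together. All lines that name no gene, which also hold alignments that were not unique, were left out. Gene positions and sequences are from RefSeq's TAIR10.1.

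Counts were scaled by TMM in edgeR 4.0.16 (R 4.3.3), factors 0.932 to 1.05, and given as CPM. Genes with 1 CPM in at least 1 library were tested with the quasi-likelihood test in a model of 18 groups plus the batch number of the titles. Same-batch libraries deviated together (mean r of deviations from group means 0.27, against -0.135 between batches). The thresholds were an adjusted p of 0.05 and a log2 fold change of 1, and differences between effects were called on the adjusted p alone. SE is the log2 fold change divided by the root of F. Every member had at least 38 counts in every library, of 21328819 or more. Alternatives were DESeq2 1.42.0, limma 3.58.1, DESeq2 size factors, other filters, no batch term, fewer libraries and an adjusted p of 0.01.

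The members and lists were chosen with earlier results of these data known. All members were named, and from the other oscillator and output lists those at either end of the log2 fold changes (3 each) at 480 min relative to 30 min in WT without peptide that passed, up to 5 that passed in each CIF2 comparison, and the 5 genes most like CCA1 and TOC1.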

Additional observations from a re-analysis of the deposited data

Results flagged for a closer look

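In 5 cases among the output and oscillator genes outside the 10 members, the CIF2 effect differed between genotypes or times by the test of the difference itself (edgeR). For CDF1 the effect in sgn3-3 minus that in WT at 480 min was -1.21 ± 0.29 on the log2 scale (adjusted p = 0.00679 by edgeR), and the adjusted p was 0.0816 without batch 2 and 0.11 without batch 3. The CIF2 effect on CDF1 at 480 min minus that at 30 min was 1.32 ± 0.27 in cif1-2_cif2-2 (adjusted p = 0.000792 by edgeR) and 1.33 ± 0.27 in WT (adjusted p = 0.000862 by edgeR). Both passed under every alternative that gave a value, with adjusted p-values of at most 0.0444 and 0.0301.

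For COL1 the CIF2 effect in sgn3-3 minus that in WT at 120 min was 1.76 ± 0.50 on the log2 scale (adjusted p = 0.0406 by edgeR), with adjusted p-values of 0.0147 to 0.322 over the alternatives. The gene had 0.131, 0.429 and 0.26 CPM with CIF2 in WT. For ELF4-L3 in cif1-2_cif2-2 the CIF2 effect at 480 min minus that at 30 min was 0.8 ± 0.23 (adjusted p = 0.0239 by edgeR), with adjusted p-values up to 0.288 over the alternatives.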

How the results depend on the processing

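Each count of clock genes past an adjusted p of 0.05 was recomputed under the alternatives, and 522 of 547 recomputed counts stayed within 1.5 times the reported one. All comparisons of a mutant with WT and all differences between effects had a reported count of 0. A recomputed 0 was scored as unchanged, also at the stricter adjusted p, where it could not differ. The counts of CIF2 calls moved most. At 120 min in WT the count was 2, and it was 1 with DESeq2, 1 with limma, 1 without the batch block, 1 at an adjusted p of 0.01 and 0 to 2 with 1 batch left out. At 480 min in WT it was 1, and it was 2 with DESeq2, 2 with limma, 0 without the batch block, 2 without the 3 libraries of conflicting labels, 0 at an adjusted p of 0.01 and 0 to 1 with 1 batch left out. In cif1-2_cif2-2 at 120 min it was 1, and it was 4 with only the libraries of the comparison and 0 to 3 with 1 batch left out. In cif1-2_cif2-2 at 480 min it was 1, and it was 2 with DESeq2, 2 with limma, 3 with only the libraries of the comparison, 0 at an adjusted p of 0.01 and 0 to 2 with 1 batch left out. With only the libraries of the comparison, 1 gene passed in cif1-2_cif2-2 at 30 min and 1 in the difference of sgn3-3 minus WT at 120 min, against 0 for both in the full fit. For sgn3-3 without peptide at 120 min relative to 30 min, the count was 6, and 3 to 6 with 1 batch left out. The causes were not tested.

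For the members, single time values were recomputed only for the 138 results that passed in the full fit. None of these 1639 recomputed values changed direction and 79 no longer passed, 20 of them without batch 2 and 18 without the batch block. Time values that did not pass, among them most of those of TOC1, were not recomputed, so their direction was not checked. Single CIF2 values under the alternatives were kept for CCA1 and LHY, not for the other 8 members, although the counts above cover all members. The largest counts in cif1-2_cif2-2 above therefore include members other than CCA1 and LHY, which are not named here. Some small CIF2 values of CCA1 and LHY changed sign. With 1 batch left out, CCA1 in sgn3-3 at 30 min ranged from -0.07 to 0.05 and LHY from -0.01 to 0.06, and CCA1 there was 0.00 with DESeq2 size factors, 0.01 with no filter and 0.00 with DESeq2. LHY in sgn3-3 at 120 min ranged from -0.15 to 0.08. For cif1-2_cif2-2 minus WT the ranges with 1 batch left out were -0.02 to 0.11 for LHY at 30 min, -0.02 to 0.13 for CCA1 and -0.10 to 0.23 for LHY at 120 min, and -0.22 to 0.15 for CCA1 and -0.13 to 0.08 for LHY at 480 min, where CCA1 was also -0.04 with limma and -0.02 with only the libraries of the comparison. No value was obtained without the 3 libraries of conflicting labels for comparisons that use them. CCA1 had 38 to 95 counts in the cif1-2_cif2-2 and 47 to 69 in the WT libraries with CIF2 at 480 min, and its SE was 0.25 and 0.27 there, against 0.19 at 120 min. The part of depth in its missed threshold was not tested. COL1 and COL2 rest on few reads.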

Other observations

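With the CIF2 effects at 120 and 480 min averaged, a comparison chosen after the values were seen, CCA1 and LHY both passed in the genotypes that keep SGN3. CCA1 had a log2 fold change of -0.70 ± 0.16 in cif1-2_cif2-2 (adjusted p = 0.000773 by edgeR), -0.15 ± 0.15 in sgn3-3 (adjusted p = 0.965 by edgeR) and -0.75 ± 0.16 in WT (adjusted p = 0.000641 by edgeR). LHY had -0.65 ± 0.16 in cif1-2_cif2-2, -0.26 ± 0.15 in sgn3-3 and -0.70 ± 0.16 in WT. No other member passed. The nearest was GI in cif1-2_cif2-2, at -0.26 ± 0.10 (adjusted p = 0.058 by edgeR), while GI had -0.09 ± 0.10 in WT. Of all genes, 18%, 0% and 17.6% passed in the same order of genotypes.

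The averaged effect in sgn3-3 minus that in WT was 0.60 ± 0.22 for CCA1 (adjusted p = 0.0991 by edgeR) and 0.44 ± 0.22 for LHY (adjusted p = 0.276 by edgeR), and neither passed. Of all genes, 7.49% passed in this difference. Against the mean of WT and cif1-2_cif2-2, also chosen after the values were seen, the difference was 0.57 ± 0.19 for CCA1 (adjusted p = 0.041 by edgeR). For LHY it was 0.41 ± 0.19 (adjusted p = 0.186 by edgeR), so CCA1 passed and LHY did not, where 10.5% of all genes passed.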
